A study of Arabidopsis thaliana with 9 samples.

Results

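The microarray used here carries, beside probes named after annotated genes, a large set of probes named only by a stretch of a chromosome. These position probes were measured in whole seedlings of Arabidopsis thaliana exposed to silver nitrate. A position probe was counted as a member if its name opened with a chromosome and if there was a time at which each of the 3 arrays showed it well above background. Of 37478 non-control probes on the array, 8812 were named by position, and 2012 of these met the rule. Another 26236 probes were named by a gene locus, and 21537 of them met the same rule. The 3 groups were Col-0 seedlings in shaken liquid medium, to which silver nitrate was added to 0.1 mM. They were taken at once (0 h), at 48 h or at 72 h. All plants were 3 weeks old, unmutated and grown alike under continuous light. Each time had 3 arrays, described by the labels as independent experiments with different plants. Plants kept for 48 h or 72 h without silver are not among the groups, so silver exposure and time in culture cannot be told apart.

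Genomes are transcribed beyond their annotated genes. Transcripts from such places include long noncoding RNAs, antisense RNAs, pieces of transposable elements, unannotated ends of messenger RNAs and fragments of organelle DNA that moved into the nucleus. Many are held at a low level by RNA decay through the exosome and by RNA-directed DNA methylation. Silver ions are toxic to plants, bind thiol groups and block ethylene perception at the receptor.

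Each position probe carries a chromosome, a start, an end and a strand in its name. Of the 8812 names, 8696 span 60 bases, and the other 116 span 45 to 969 bases. The names give 4666 probes the plus strand and 4146 the minus strand. The genome build behind the positions is not given in the sources used here, and whether the sign marks the probe or its target is not stated there either. Probe sequences and the annotation at each position were not analysed here, so positions below are those of the probe names and no probe is assigned to an exon, an intron or a gene. In bulk tissue, fewer cells with a transcript and less transcript per cell cannot be told apart.

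Most position probes gave no signal above background. On single arrays 22.4% to 28.5% of the 8812 were well above background, against 80.9% to 82.8% of locus probes. Over the whole experiment 4713 position probes (53.5%) were above background on 0 arrays. Another 2087 were above background on at least 1 array but never on all 3 arrays of a time. The 2012 members made up 22.8% of all position probes, whereas 82.1% of locus probes met the same rule. Among the members, 1405 were above background on all 9 arrays. All position probes together held 0.504% to 0.562% of the summed signal of an array. An absent signal says only that nothing was detectable above an array's background.

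The members were dim. Levels are given as the log2 of the processed signal minus the log2 of the 75th percentile of that array, so a probe at 0 equals the 75th percentile. The median member had a mean level of -5.63 over the 9 arrays, against -0.45 for the median locus probe. The quartiles of the members were -6.56 and -4.10, and 54 of 2012 (2.68%) had a mean level above 0, against 42.9% of locus probes. At the edge of the rule, the 50 members above background on exactly 3 arrays had a median level of -6.41 at their best time. The 450 position probes just outside, with 2 of 3 arrays at their best time, had a median of -7.11. The lowest level called well above background differed between arrays, between -7.95 (72 h replicate 3) and -7.0 (0 h replicate 3). Members on the plus strand (1044) and the minus strand (968) had median levels of -5.66 and -5.62.

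**Figure D1:**
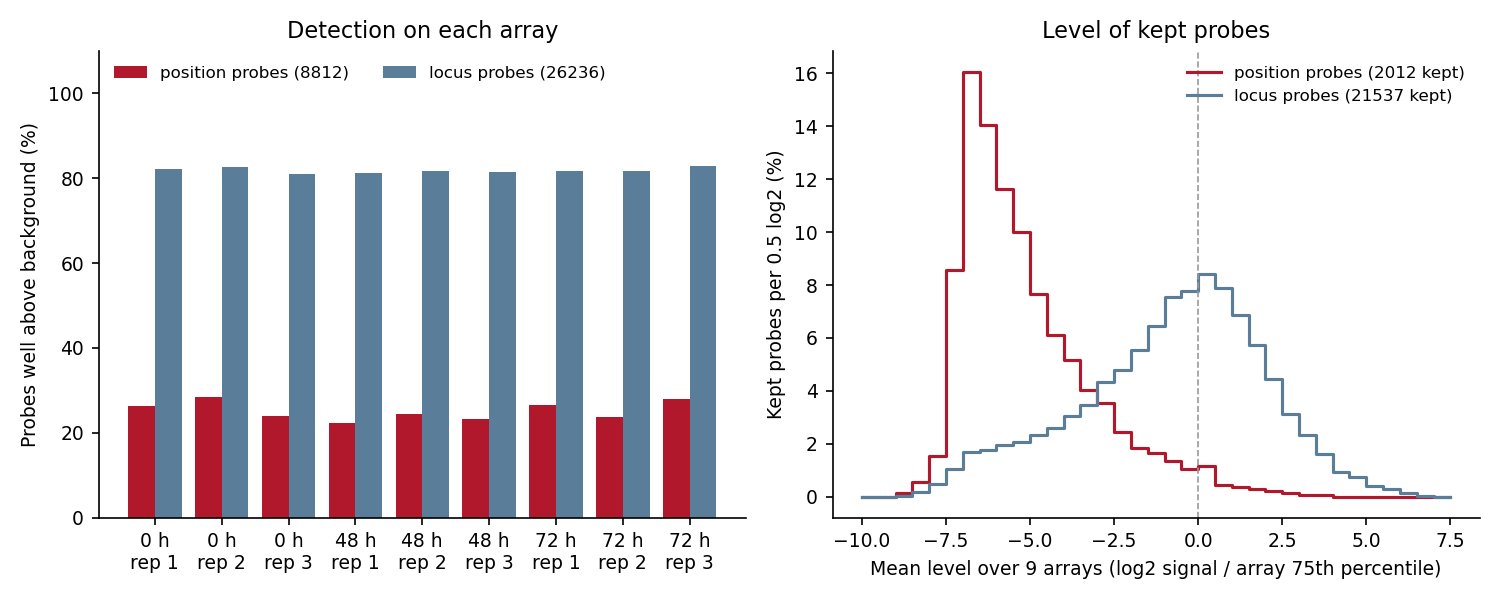
Left, percentage of position and locus probes well above background on each of the 9 arrays; position probes lie between 22.4% and 28.5%, locus probes between 80.9% and 82.8%. Right, percentage of kept probes per 0.5 log2 of mean level, where the dashed line at 0 is the array's 75th percentile; the medians are -5.63 for position and -0.45 for locus probes.

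The probe numbers divide the members into a common and a rare kind. Numbers that open with 7 belong to 8326 position probes, of which 21.9% were kept at a median level of -5.74. The other 486 position probes were kept in 39.1% of cases at a median level of -2.63. By chromosome, the share kept was 26.1% on chromosome 1, 24.98% on 2, 21.0% on 3, 20.5% on 4 and 21.0% on 5. The share of chromosome 2 includes the megabase from 3 to 4 Mb, described below, where 86 of 118 position probes were kept.

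The 6 brightest members show what a strong signal of a position probe looks like on this array. A_84_P723453 (chromosome 5, 10186377 to 10186436, plus strand) had the highest mean level, 3.55. Its levels were 4.70, 4.54 and 5.14 at 0 h, 2.90, 3.13 and 3.43 at 48 h, and 2.88, 2.84 and 2.39 at 72 h. All 48 h and 72 h arrays lay below all 0 h arrays. The change was -1.64 ± 0.22 (SE, n = 3 per time) at 48 h and -2.09 ± 0.22 at 72 h (adjusted p = 0.000981 and 0.000236, limma). A_84_P707841 (chromosome 2, 13278935 to 13278994, minus strand) had levels of 3.65, 3.23 and 3.68 at 0 h, 3.04, 3.31 and 3.21 at 48 h, and 2.72, 2.94 and 3.14 at 72 h. Its change of -0.59 ± 0.17 at 72 h was called (adjusted p = 0.0300), but the call was lost when any of 4 arrays was left out (0 h replicates 1 and 3, 72 h replicates 1 and 2), with adjusted p up to 0.0995. It was also lost when slides were fitted as blocks (adjusted p = 0.0738), after quantile normalisation (0.0989), in the deposited value table (0.156), without the filter (0.0615), with only the 6 arrays compared (0.0607) and without slides 3 and 4 (0.111). The remaining 4 (A_84_P736161, A_84_P718168, A_84_P182034 and A_84_P733447) had mean levels of 2.41 to 3.00, changes of -0.58 to 0.33, and no call at either time.

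Other members hardly moved on any array. A_84_P22131 (chromosome 3, 6110527 to 6110586, minus strand) kept a level between 0.31 and 0.45 over the 9 arrays, a range of 0.15. A_84_P728262 (chromosome 1, 28894405 to 28894464, plus strand) and A_84_P130756 (chromosome 5, 26693572 to 26693631, plus strand) spanned 0.16 each. These 3 were chosen for their narrow range, which is therefore a description.

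After 48 h of silver, 498 of the 2012 members were called changed at an adjusted p under 0.05, 181 of them higher and 317 lower than at 0 h. Over all 24762 kept probes the test called 28.2% (12.9% higher and 15.3% lower). The members stood at 24.8% (8.996% higher and 15.8% lower), below that background for rises and near it for falls. At least a 2-fold change was seen in 83 of the rises and 184 of the falls, or 4.13% and 9.15% of members, beside 7.41% and 8.95% of all kept probes. The median change of members was -0.08, beside 0.01 for locus probes and 0.00 over all probes.

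After 72 h, 585 members were called, 195 higher and 390 lower than at 0 h. The background over all kept probes was 34.3% (15.2% higher and 19.1% lower), and the members stood at 29.1% (9.69% higher and 19.4% lower). Of these calls, 105 rises and 241 falls were at least 2-fold, or 5.22% and 11.98% of members, beside 8.55% and 11.8% of all kept probes. The median change was -0.11 for members and 0.00 for locus probes. Within slides, where arrays of both times shared a glass slide, the median change of members was -0.07, -0.10 and -0.11 at 48 h (slides 1 to 3) and -0.07 and -0.15 at 72 h (slides 1 and 2). On slide 4 the 72 h replicate 3 stood alone.

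The direction of the calls rested on how the arrays were scaled and corrected. Rises made up 36.3% of the members' calls at 48 h, but 10.8% with another background correction (normexp) and 49.8% in the authors' deposited value table. At 72 h they made up 33.3%, but 6.03% with normexp, 47.3% after quantile normalisation and 55.9% in the deposited value table. Normexp moved the median change of all probes to -0.10 and -0.14 at 48 h and 72 h, and the value table moved it to 0.14 and 0.22. Relative to those shifts, the median member changed by -0.35 and -0.47 with normexp and by -0.08 and -0.09 in the value table. After quantile normalisation the same differences were -0.08 and -0.0014. The normexp setting adds an offset of 50 units, which weighs most on dim probes. For each replicate number the array's 75th percentile was higher at 48 h and 72 h than at 0 h. The offset can thus lower dim probes at the later times by itself, and its part in the normexp values was not tested. Which way most members moved was therefore not settled by these arrays.

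Between 72 h and 48 h no member was called by limma, nor was any probe on the array (0% of 24762). At an unadjusted p under 0.05 there were 142 members, and their smallest adjusted p was 0.136. When 48 h replicate 3 was left out, 1 member was called, A_84_P736702, at -2.15 ± 0.15 (adjusted p = 0.0317); it was named after its value was seen. The 4 members with the smallest p were A_84_P732531, A_84_P728651, A_84_P716137 and A_84_P704600, with adjusted p of 0.136, 0.142, 0.142 and 0.157. A_84_P732531 (chromosome 1, 7886789 to 7886848, minus strand) had levels of -4.10, -4.47 and -3.83 at 0 h, -5.14, -5.90 and -5.54 at 48 h, and -7.06, -7.40 and -7.33 at 72 h. Its 3 times did not overlap, yet the difference between 72 h and 48 h did not pass the adjusted threshold.

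Members were then set beside locus probes of like intensity. Between levels of -7 and -2, where 1623 members and 6042 locus probes lie, 8.81% of members and 16.9% of locus probes were called higher at 48 h. At 72 h these shares were 9.55% and 18.8%. Falls were called for 14.4% of members and 14.2% of locus probes at 48 h, and for 17.7% and 19.4% at 72 h. In each of the 7 bins of 1 log2 from -8 to -1, the share of rises was smaller for members than for locus probes, at both times. That held under all 5 other scalings and corrections, except in 1 bin at 48 h with normexp. From 0 to 1 the order turned round, with rises for 25% of 32 members and 11.5% of 3510 locus probes at 48 h. At 72 h these shares were 25% and 14.5%. In the bin from -6 to -5, 8.97% of 435 members and 18.9% of 869 locus probes rose at 48 h. The median standard error in this bin was 0.23 for members and 0.31 for locus probes. Among probes above background on all 6 arrays compared, the gap in that bin was smaller, at 7.33% of 409 members and 11.5% of 712 locus probes. From -7 to -2 these probes gave rises for 7.89% of 1254 members and 14.8% of 5324 locus probes at 48 h, and for 8.32% of 1346 and 16.7% of 5316 at 72 h. Falls were called for 14.8% and 13.9% at 48 h and for 18.5% and 18.9% at 72 h. The part of detection in the remaining gap was not tested, and the comparison is a description by counts.

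**Figure D2:**
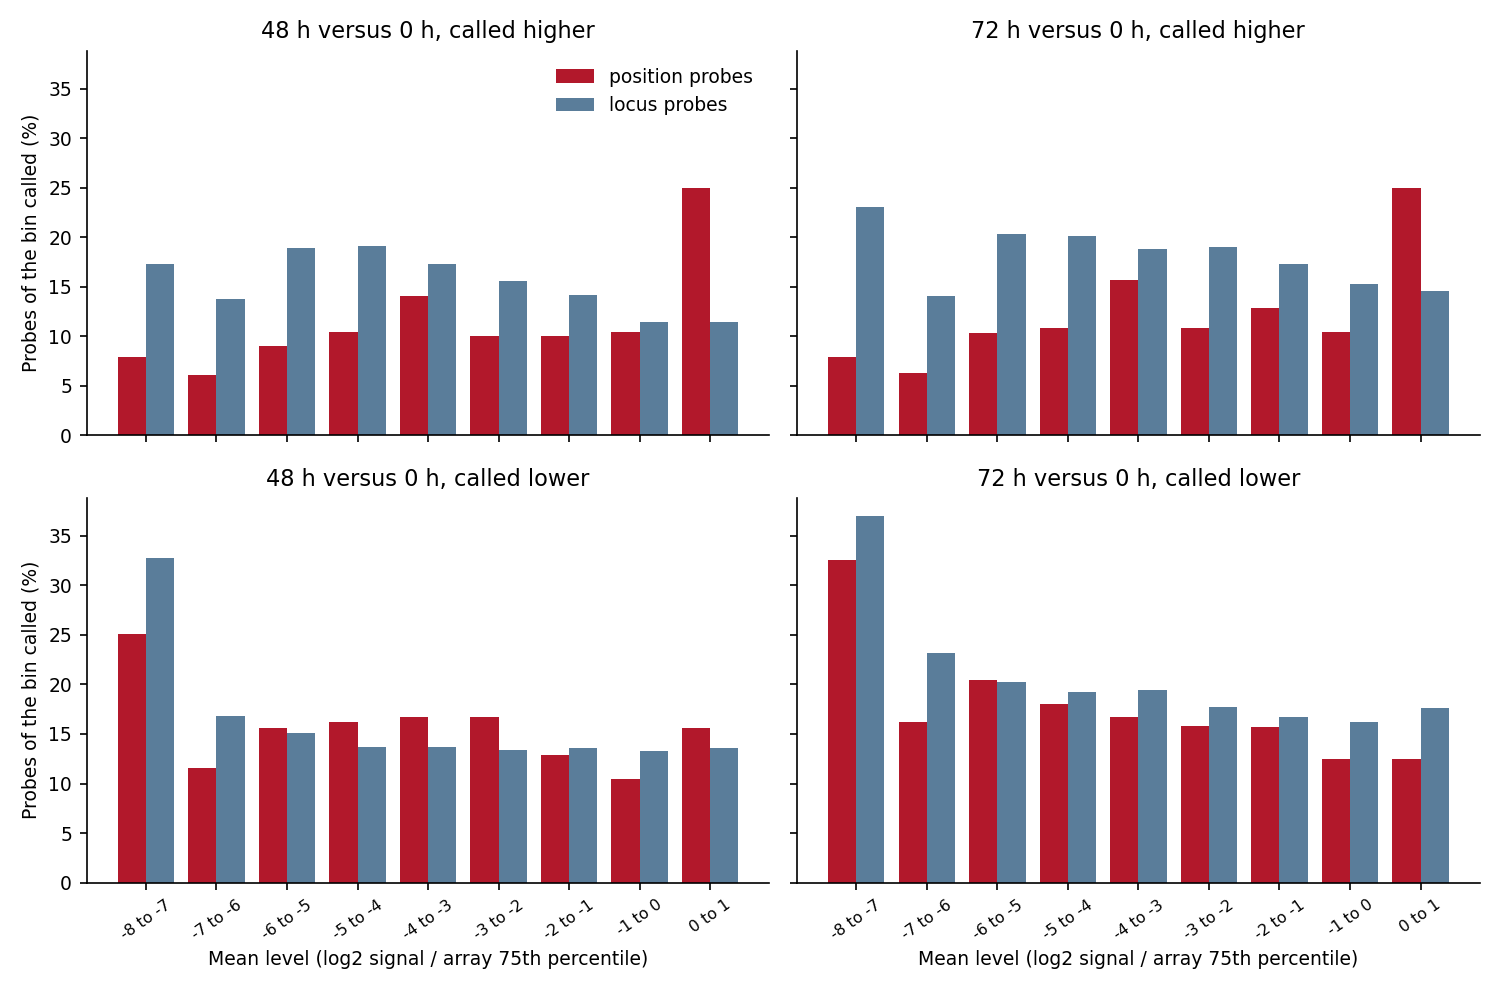
Percentage of probes called at an adjusted p under 0.05 in bins of 1 log2 of mean level, for position and locus probes, with rises above and falls below, at 48 h (left) and 72 h (right) against 0 h. Bars of position probes are shorter for rises in every bin from -8 to -1, and from -7 to -2 falls of the 2 kinds are 14.4% and 14.2% at 48 h. The bin from 0 to 1 holds 32 members, and there the order turns round. Rises are 25% of members and 11.5% of locus probes at 48 h, and 25% and 14.5% at 72 h.

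Probes that crossed the detection limit need care, because the rule itself required a difference of those detected at 1 time. All 3 arrays were above background only at 0 h for 160 members, only at 48 h for 15 and only at 72 h for 146. These were 1.82%, 0.170% and 1.66% of all position probes, beside 1.13%, 0.282% and 0.869% of all locus probes. A further 144 were so at 48 h and 72 h but not at 0 h (1.63%, beside 1.46% of locus probes). The lowest detected level differed between arrays, so these counts are not calls of change. Among the 1428 members above background on all 6 arrays compared at 48 h, 120 rose (8.40%) and 205 fell (14.4%), beside 12.4% and 14.8% of all probes so detected. Among 1524 such members at 72 h, 135 rose (8.86%) and 275 fell (18.0%), beside 14.7% and 18.4% of all such probes.

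The strongest rises on arrays with signal at all times came from single positions on several chromosomes. A_84_P14629 (chromosome 3, 16524216 to 16524275, minus strand) had levels of -2.37, -0.37 and -1.46 at 0 h, 1.11, 3.98 and 2.80 at 48 h, and 1.12, 3.69 and 2.33 at 72 h. Every 48 h and 72 h array was above every 0 h array, with a change of 4.03 ± 0.86 at 48 h and 3.78 ± 0.86 at 72 h (16.4-fold and 13.7-fold, adjusted p = 0.00893 and 0.00980). In each time its replicate 2 was the highest and its replicate 1 the lowest. Leaving out 48 h replicate 1 gave 4.79 at 48 h, and leaving out 72 h replicate 2 gave 3.12 at 72 h.

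A_84_P12195 (chromosome 5, 24023425 to 24023560, minus strand) had levels of -6.14, -4.74 and -5.58 at 0 h, -3.32, -1.22 and -2.58 at 48 h, and -1.71, -1.57 and -1.94 at 72 h. It rose 8.64-fold at 48 h and 13.4-fold at 72 h (adjusted p = 0.00274 and 0.000847), with no overlap between 0 h and either later time. A_84_P726268 (chromosome 4, 5648659 to 5648718, plus strand) rose by 3.09 ± 0.51 and 3.03 ± 0.51 at the same times (adjusted p = 0.00265 and 0.00226). A_84_P703001 (chromosome 4, 9834132 to 9834191, plus strand) had levels of -3.94, -3.43 and -4.21 at 0 h, -2.12, -2.17 and -1.82 at 48 h, and -0.40, -1.24 and -0.80 at 72 h. Its rise was 1.82 ± 0.26 at 48 h and 3.05 ± 0.26 at 72 h (adjusted p = 0.00132 and 9.98e-05). Further rises at both times were A_84_P179904 (2.63 and 1.86), A_84_P723518 (2.31 and 2.97), A_84_P709892 (2.26 and 2.86) and A_84_P714510 (1.22 and 2.02). With normexp the 48 h calls of A_84_P709892 and A_84_P714510 (adjusted p = 0.215 and 0.245) and the 72 h call of A_84_P179904 (adjusted p = 0.0760) were lost.

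Some rises were called only at 48 h, with a wide spread between arrays. A_84_P730011 (chromosome 2, 15208419 to 15208478, minus strand) had levels of -6.56, -7.16 and -6.19 at 0 h, -3.15, 0.07 and -2.11 at 48 h, and -4.94, -1.41 and -5.34 at 72 h. Its change was 4.90 ± 1.09 at 48 h (adjusted p = 0.0106) and 2.74 ± 1.09 at 72 h (adjusted p = 0.0859). Without 48 h replicate 2 its 48 h change was 4.003. A_84_P718869 (chromosome 4, 8346229 to 8346288, minus strand) changed by 2.89 ± 0.76 at 48 h (adjusted p = 0.0223) and by 1.04 at 72 h (adjusted p = 0.330). Its call was lost without 0 h replicate 1 or 2 or without 48 h replicate 1 or 2, with adjusted p of 0.0571 to 0.0726. A_84_P723830 changed by 2.62 ± 0.63 at 48 h (adjusted p = 0.0149) and by 1.70 at 72 h (adjusted p = 0.0674), and without 48 h replicate 2 its 48 h call was lost (adjusted p = 0.0554). The difference between 72 h and 48 h was called for none of these probes.

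Among the named falls, 2 of the largest came from chromosomes 4 and 3. A_84_P727289 (chromosome 4, 12686742 to 12686801, minus strand) had levels of -2.60, -2.40 and -2.58 at 0 h, -5.87, -5.63 and -5.33 at 48 h, and -6.12, -5.92 and -5.52 at 72 h. It fell 8.45-fold at 48 h and 10.03-fold at 72 h (log2 changes of -3.08 ± 0.19 and -3.33 ± 0.19, adjusted p = 4.96e-05 and 2.95e-05). A_84_P719881 (chromosome 3, 22914105 to 22914164, minus strand) had levels of -2.50, -3.15 and -2.97 at 0 h, -5.87, -5.61 and -5.66 at 48 h, and -5.99, -5.87 and -6.49 at 72 h. Its changes were -2.84 ± 0.22 and -3.24 ± 0.22 (adjusted p = 0.000102 and 4.34e-05). For both probes the later arrays lay at least 2 log2 below the lowest 0 h array.

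A brighter member, A_84_P21986 (chromosome 2, 9686022 to 9686081, plus strand), had levels of 0.89, 0.90 and 1.29 at 0 h, -1.67, -1.05 and -0.71 at 48 h, and -1.56, -1.92 and -2.59 at 72 h. It thus lay above the 75th percentile at 0 h and below it on every 48 h and 72 h array, with changes of -2.17 ± 0.31 and -3.05 ± 0.31 (adjusted p = 0.00138 and 0.000214). A_84_P739960 (chromosome 4, 7785588 to 7785647, minus strand) changed by -3.33 and -3.25, although 1 of its 48 h arrays was not well above background. The other named falls, all called at both times, were A_84_P728206 (-3.12 ± 0.50 at 48 h and -2.62 ± 0.50 at 72 h), A_84_P710126 (-2.73 and -2.92), A_84_P173181 (-2.63 and -2.79) and A_84_P737575 (-2.74 and -1.87). A_84_P723742 (-2.59 and -2.42), A_84_P716826 (-2.41 and -2.67), A_84_P716137 (-1.69 and -2.76) and A_84_P732531 (-1.39 and -3.13) belong to the same group.

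A_84_P14564 (chromosome 3, 6155600 to 6155659, plus strand) changed by -2.02 at 48 h and -2.89 at 72 h (adjusted p = 0.0374 and 0.00669). Its 48 h call was lost in 6 of 9 fits that each left out 1 array (48 h replicates 1, 2 and 3, 0 h replicates 2 and 3, and 72 h replicate 3), with adjusted p up to 0.120. Without 0 h replicate 1 its changes were -2.71 and -3.58.

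**Figure D3:**
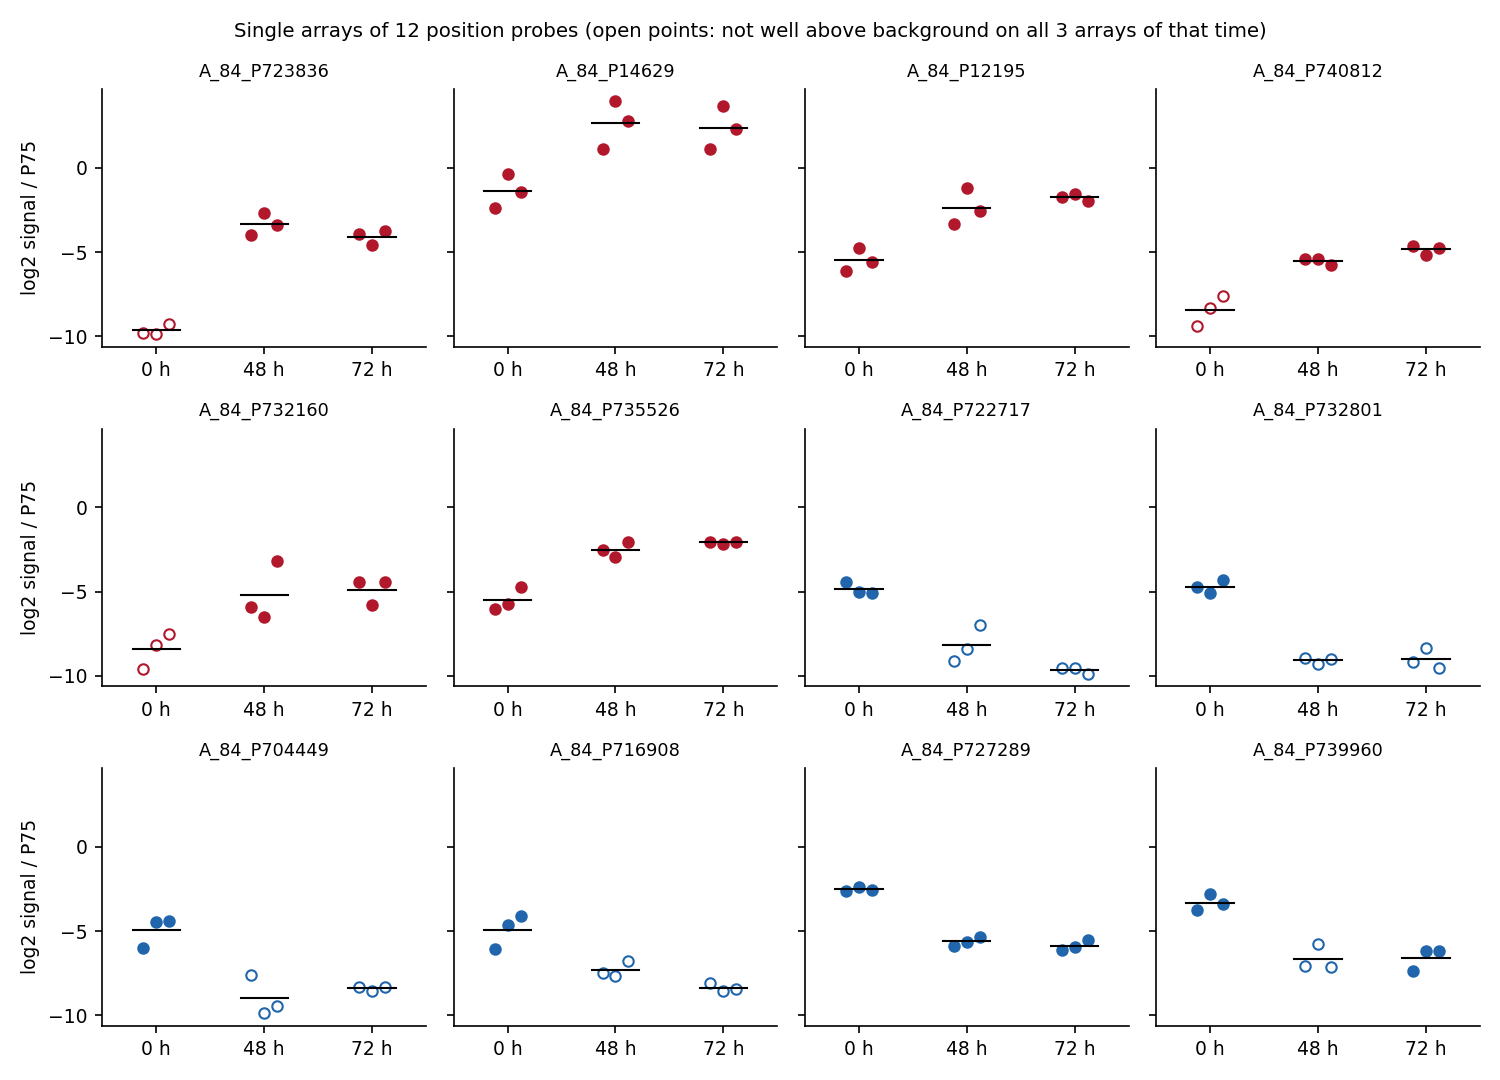
Level on each of the 9 arrays (log2 signal over the array's 75th percentile) for the 6 called rises and 6 called falls largest at 72 h among the probes named for that comparison; points are arrays in replicate order, bars are means of 3. Arrays at 48 h and 72 h lie apart from those at 0 h in all 12 panels. The probes were chosen for their calls, which favours such separation, so it is a description. Open points mark times at which not all 3 arrays were well above background.

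For some members 1 of the times had no array above background, so that the change has only a lower bound. At 48 h 82 calls were of this kind, 24 higher and 58 lower, and at 72 h 88 were, 29 higher and 59 lower. Calls were thus 66.1% of 124 such members at 48 h and 83.0% of 106 at 72 h, beside 74.6% of 511 and 89.6% of 500 probes of any kind, a share that the rule of detection itself raises. By direction, 19.4% of these members rose and 46.8% fell at 48 h, beside 31.5% and 43.1% of probes of any kind. At 72 h 27.4% rose and 55.7% fell, beside 38.0% and 51.6%. The bound sets the mean of the detected time against the lowest level above background on each array of the other time, or the probe's own level where that is higher. It is a bound only against that level, which differed between arrays. A_84_P723836 (chromosome 1, 4661267 to 4661326, minus strand) had levels of -3.99, -2.70 and -3.37 at 48 h and -3.89, -4.60 and -3.77 at 72 h, and was not well above background on any 0 h array. It was at least 15.9-fold higher at 48 h and at least 9.56-fold higher at 72 h than at 0 h (adjusted p of the fit 3.17e-05 and 3.97e-05). A_84_P718920 was at least 4.64-fold and 3.74-fold higher, and A_84_P716947 at least 2.18-fold and 4.58-fold higher. A_84_P732160 was at least 4.44-fold and 5.50-fold higher. Its calls were lost without 0 h replicate 1 or 2 at 48 h (adjusted p = 0.0647 and 0.0570) and without 72 h replicate 3 at 72 h (adjusted p = 0.0501). Without 48 h replicate 3 its fitted 48 h change was 2.22, against 3.23 with all arrays. A common floor, added after seeing the data, raised all lower values to -7.0, the highest of the array floors. There the log2 changes of A_84_P732160 were 1.80 at 48 h and 2.11 at 72 h, without a call (adjusted p = 0.117 and 0.0631). The 48 h change of A_84_P716947 was 0.78 there, also without a call (adjusted p = 0.0946). With normexp, the rises of A_84_P718920 and A_84_P732160 were not called at either time (adjusted p of 0.280 to 0.676), nor was that of A_84_P716947 at 72 h (adjusted p = 0.649), whose 48 h change reversed to -0.11.

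Bounds in the other direction came from probes seen at 0 h. A_84_P732801 (chromosome 5, 5649719 to 5649778, minus strand) had levels of -4.72, -5.09 and -4.33 at 0 h and was above background on no later array. It was at least 5.86-fold lower at 48 h and at least 7.99-fold lower at 72 h (adjusted p of the fit 7.41e-05 and 5.27e-05). A_84_P704449 (chromosome 2, 18503943 to 18504002, plus strand) was at least 5.02-fold and 6.84-fold lower. Without 48 h replicate 1 its fitted 48 h change was -4.69, against -4.01 with all arrays. A_84_P722717 was at least 7.31-fold lower and A_84_P716908 at least 6.85-fold lower at 72 h, each with 1 of 3 arrays above background at 48 h. At 48 h A_84_P736156 was at least 4.99-fold lower and A_84_P723587 at least 4.93-fold lower.

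Neighbouring positions on 1 strand tended to change alike. On the same strand, 295 pairs of members lay within 2000 bases of each other without overlap, and 454 members took part. Across these pairs the log2 changes of both members correlated at r = 0.72 at 48 h and 0.74 at 72 h. The pairs share arrays and some share members, so r is a description. At 72 h both members of 45 pairs were called, 14 pairs higher, 30 lower and 1 in opposite directions. For 63 pairs 1 member was called, and for 187 neither. By distance, r at 72 h was 0.78 under 500 bases, 0.79 from 500 to 1000 and 0.69 from 1000 to 2000. Without the pair in which both changes exceeded 5, r was 0.65 at 48 h and 0.69 at 72 h.

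On opposite strands the value of r turned on 1 megabase, from 3 to 4 Mb of chromosome 2. Across all 78 pairs within 2000 bases r was 0.29 at 48 h and 0.42 at 72 h. Across the 38 pairs outside that megabase it was 0.60 and 0.64, beside 0.73 and 0.75 for the 238 same-strand pairs outside it. Of all 78, those under 500 bases apart (24 pairs) had r = 0.73 at 72 h, and those from 500 to 1000 (20 pairs) had -0.02, both with that megabase included. Of 205 pairs that overlap on opposite strands, 161 had no member kept, 33 had 1 and 11 had both. Across the 11, r was 0.80 at 72 h, and 4 of them lie on the same megabase. The pair A_84_P740812 and A_84_P735526 had by far the largest rises of these, at 3.60 and 3.41, and r without it was not computed. These partners share 6 to 58 bases, and how far signal of 1 strand reached the probe of the other was not tested.

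**Figure D4:**
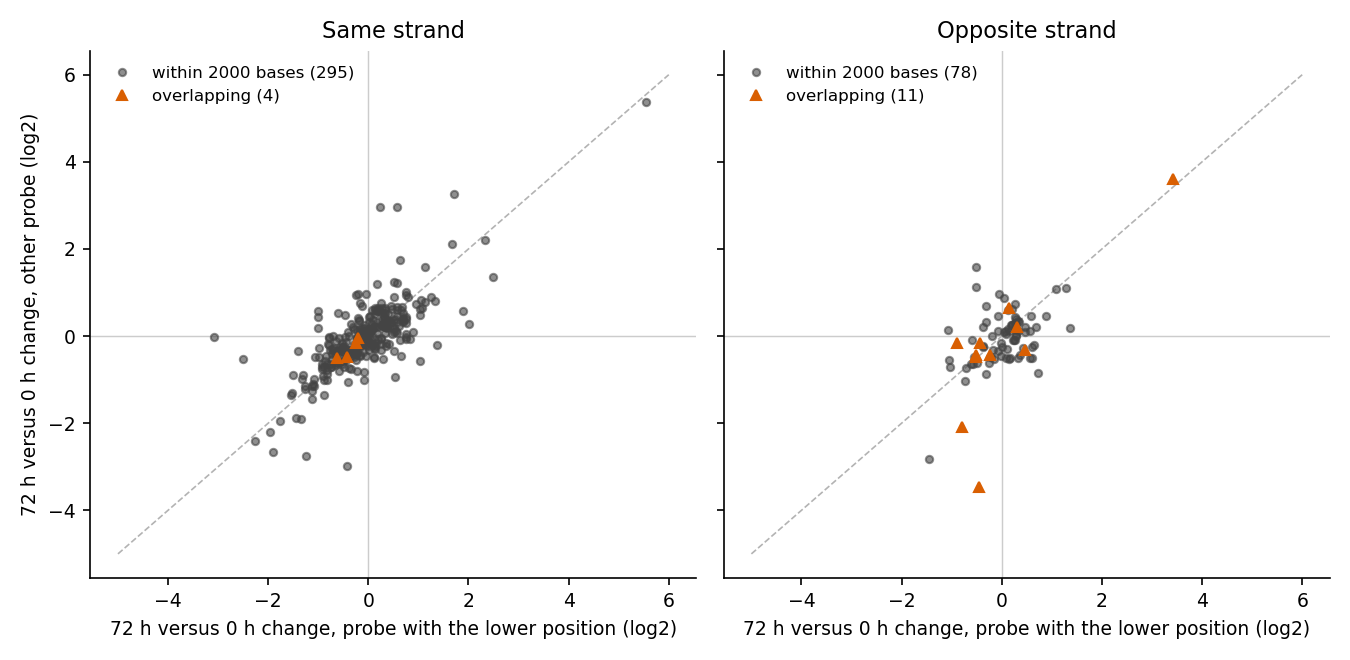
Change at 72 h against 0 h (log2) of 1 member of each pair plotted against that of the other, for pairs within 2000 bases on the same strand (295 pairs) or on opposite strands (78 pairs), with overlapping pairs as triangles (4 and 11). The dashed line marks equality, and closeness to it was not measured. Changes correlated at r = 0.74 for same-strand pairs and 0.42 for opposite-strand pairs. Over the 38 opposite-strand pairs outside the megabase from 3 to 4 Mb of chromosome 2, r was 0.64.

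The clearest neighbouring rise was on chromosome 1. A_84_P727775 (4662921 to 4662980, minus strand) lies in the same 1714 bases as A_84_P723836, on the same strand. Its levels were -7.14, -3.48 and -4.06 at 0 h, 0.56, 0.72 and 0.06 at 48 h, and 0.54, 0.19 and 0.73 at 72 h. It was thus above the 75th percentile on every 48 h and 72 h array, with changes of 5.34 ± 0.80 and 5.38 ± 0.80 (adjusted p = 0.00169 and 0.00121). One 0 h array, replicate 1, was not well above background, and without it the changes were 4.21 and 4.26.

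Overlapping probes of both strands rose together at another place on chromosome 1. A_84_P735526 (24345270 to 24345329, minus strand) had levels of -6.01, -5.74 and -4.71 at 0 h, -2.50, -2.97 and -2.04 at 48 h, and -2.03, -2.15 and -2.05 at 72 h. Its changes were 2.98 ± 0.34 and 3.41 ± 0.34 (adjusted p = 0.000502 and 0.000200). A_84_P740812 (24345324 to 24345383, plus strand) was above background on no 0 h array, and was at least 3.52-fold higher at 48 h and at least 5.70-fold higher at 72 h. Under normexp the plus-strand rise was not called (adjusted p = 0.874 and 0.481).

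Other overlapping pairs moved unequally. The minus-strand partner of the brightest member, A_84_P718163 (10186331 to 10186390 on chromosome 5), had a mean level of -5.27 and changed by -0.49 at 48 h (adjusted p = 0.162) and -0.78 at 72 h (adjusted p = 0.0314). A_84_P740339, opposite A_84_P704449, changed by -0.59 and -0.45 (adjusted p = 0.332 and 0.432). The difference between partners was not tested.

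Runs of called members were short. A run was counted over all position probes in order of place, so any probe that was not called ended it, whether kept or not. That definition itself keeps runs short. At 72 h there were 40 runs of 2 or more consecutive position probes within 2000 bases that were all called in the same direction. Of these, 15 were higher and 25 lower, with 84 members in all. Both strands were present in 5 of these runs. The 4 longest runs had 3 members each, all lower. On chromosome 5, A_84_P727290, A_84_P732638 and A_84_P727422 (24082157 to 24083187, plus strand) changed by -0.92, -0.75 and -0.72 at 72 h, with standard errors of 0.12 to 0.16. The middle one had levels of -5.03, -5.08 and -5.25 at 0 h, -5.72, -5.76 and -5.71 at 48 h, and -5.89, -6.00 and -5.73 at 72 h. At 48 h the 3 changed by -0.88, -0.61 and -0.49. The 48 h call of A_84_P727422 was lost without 0 h replicate 1 or 2 or without 48 h replicate 2 or 3 (adjusted p of 0.0528 to 0.0798).

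The other 3 runs lie on minus strands, on chromosome 5 from 1134989 to 1137106 (-1.12 to -1.26 at 72 h) and from 23680453 to 23681813 (-0.83 to -1.01), and on chromosome 1 from 1955376 to 1957993 (-0.65 to -0.92). Each of them had at least 1 member whose call was lost when single arrays were left out. Among these, A_84_P725847, A_84_P740443 and A_84_P720984 had adjusted p of 0.0472, 0.0494 and 0.0393 with all arrays and up to 0.153, 0.145 and 0.125 without 1 array. When slides were fitted as blocks, 4 of the 72 h calls in the first and last of these 3 runs were lost, those of A_84_P725847, A_84_P712267, A_84_P726306 and A_84_P720984 (adjusted p of 0.0543 to 0.0701).

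A stretch of chromosome 2 stood out in detection and level. It was chosen after its values were seen, so no test is given. Arabidopsis carries a large copy of its mitochondrial genome in the nucleus, in the pericentromere of chromosome 2. Whether these probes lie in that copy was not analysed here, and RNA of the nuclear copy and of mitochondria cannot be told apart by a probe that matches both. In the megabase from 3 to 4 Mb, 86 of 118 position probes (72.9%) were kept. In the 118 other megabases with at least 20 probes, the share kept was 0% to 34.8% with a median of 21.7%. From 3244562 to 3489516, 83 of 90 position probes (92.2%) were kept and 77 were above background on all 9 arrays.

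The 86 members of this megabase had a median level of -4.06, beside -5.70 for the other 1926 members. Of these, 7 had a mean level above 0, and all 7 are named on the plus strand. A_84_P736313 (3333828 to 3333887) had levels of 2.74, 2.27 and 1.96 at 0 h, 2.68, 2.01 and 2.04 at 48 h, and 2.86, 2.13 and 2.76 at 72 h. These times overlapped, and its changes were -0.08 and 0.26 (adjusted p = 0.874 and 0.515).

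The share of calls in this megabase depended on the scaling. At 48 h 9 members rose and 4 fell, and at 72 h 10 rose and 3 fell, so that 15.1% were called at each time, beside 25.2% and 29.7% of the other members. The median change was 0.02 at 48 h and 0.20 at 72 h, beside -0.09 and -0.13 for the other members. With normexp the same 86 probes gave 0 rises and 4 falls at 48 h and 0 rises and 6 falls at 72 h. The deposited value table gave 14 rises and 3 falls at 48 h (19.8%, beside 23.7% of the other members). At 72 h it gave 29 rises and 2 falls (36.0%, beside 31.6%), so that the order of the shares turned round. Median scaling gave 6 rises and 6 falls at 48 h, and 72 h rises outnumbered falls in all scalings but normexp. The largest change was that of A_84_P740184 (3440145 to 3440204, plus strand), with levels of -5.23, -4.78 and -5.50 at 0 h, -3.59, -3.69 and -4.13 at 48 h, and -4.20, -3.17 and -3.34 at 72 h. It rose by 1.37 ± 0.30 at 48 h and 1.596 ± 0.302 at 72 h (adjusted p = 0.0103 and 0.00399). Its neighbour A_84_P724838 (3440026 to 3440085, plus strand) rose by 1.11 ± 0.19 and 1.13 ± 0.19 (adjusted p = 0.00324 and 0.00234).

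The array also holds 4 locus probes of the mitochondrial genome, all kept. Of these, ATMG00516 rose by 0.58 ± 0.16 at 48 h and 0.74 ± 0.16 at 72 h (adjusted p = 0.0261 and 0.00760). ATMG00580, the brightest at a mean level of 4.11, changed by -0.05 and 0.06, and the other 2 by 0.04 to 0.33, without a call.

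**Figure D5:**
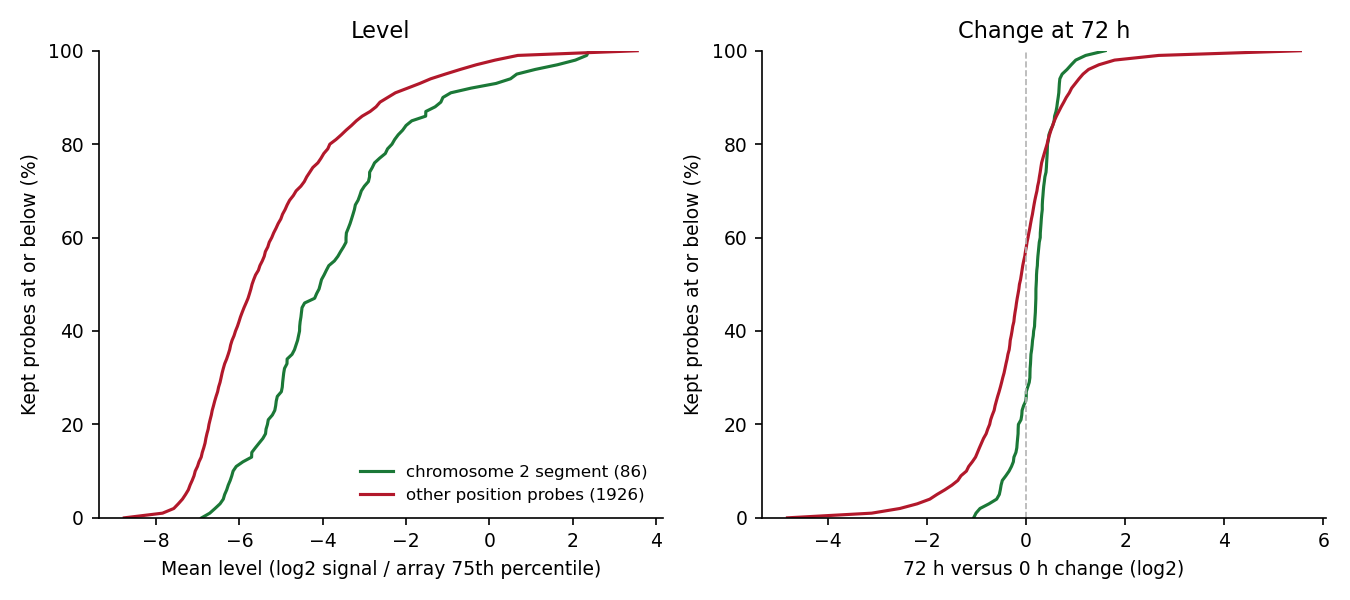
Cumulative percentage of kept probes by mean level (left) and by change at 72 h against 0 h (right), for the 86 members in the megabase from 3 to 4 Mb of chromosome 2 and the other 1926 members. The curve of that megabase lies at higher levels (medians of -4.06 and -5.70). Its changes run from -1.06 to 1.596, against -4.82 to 5.54, but a range widens with the number of probes. The quartiles of change are -0.007 and 0.41, against -0.60 and 0.30. The part of level in this spread was not tested.

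Genes that make, silence or degrade noncoding transcripts were read from the locus probes as a list of 27, all of them measured. At 48 h 3 of 27 rose and none fell, and the list's median change was 0.11. At 72 h 3 rose and none fell, with a median of 0.12, beside 0.00 for all locus probes. The 11.1% that rose at each time lay near the 12.9% and 15.2% of all kept probes. Falls were called for none of the list, beside 15.3% of all kept probes at 48 h and 19.1% at 72 h. AGO2, an Argonaute protein that binds small RNAs in defence, rose by 0.94 ± 0.15 at 48 h and 1.12 ± 0.15 at 72 h (adjusted p = 0.00253 and 0.000823). RDR1, an RNA-dependent RNA polymerase induced by viruses and salicylic acid, rose by 0.63 and 0.48 (adjusted p = 0.0190 and 0.0462). NRPD1, the largest subunit of RNA polymerase IV, rose by 0.62 at 48 h (adjusted p = 0.0367). DCL4, a Dicer that makes small interfering RNAs, rose by 0.55 at 72 h (adjusted p = 0.0306). The exosome subunit RRP41 and the exosome helicases MTR4 and HEN2 changed by -0.24 to 0.33 without a call. So did the DNA methylation genes MET1, CMT3, DRM2 and DDM1, at -0.05 to 0.39.

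The seedling label was set against marker genes of tissues. The Rubisco small subunit RBCS1A and the root and hypocotyl beta-glucosidase PYK10 had mean levels of 6.72 and 5.79, and the chlorophyll-binding protein gene CAB1 0.95. The seed storage gene CRC was above background on no array, while the floral gene AP3 was kept at -4.24. EXPA7, an expansin of root hairs, changed by -4.36 ± 1.04 at 72 h (adjusted p = 0.0120), RBCS1A by -0.51 (adjusted p = 0.0263) and CAB1 by -0.44 (adjusted p = 0.0813). At 48 h EXPA7 changed by -3.11 (adjusted p = 0.0549), CAB1 by -0.54 (adjusted p = 0.0482) and AP3 by 1.14 (adjusted p = 0.0405). The part of tissue makeup in the members' changes was not tested.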

How the data were processed

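Total RNA of whole seedlings was labelled with Cy3 (1 dye) and hybridised to 9 Agilent arrays, 3 per time, on 4 slides. Per the labels, the authors extracted spot intensities with Agilent Feature Extraction 9.5.3.1 (version from the submitters' processing notes). Per the file headers, the deposited processed signal is an intensity with background subtracted. The authors also deposited a value table, a linear ratio per probe and array; its scaling is not given in the sources used here. Its log2 differences between arrays followed the processed signal, apart from a shift shared by all probes of an array (99.996% of values of 22644 probes within 0.01), but 42.4% of position probes hold an array at exactly 1. It served only as an alternative, and its array medians were 0.901 to 1.11.

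Control spots and 80 outlier spots over the 9 arrays were left out, no spot was saturated, and spots of a probe were averaged. Values were log2 processed signal minus the array's 75th percentile, which lay between 1583 and 3681 intensity units. The lowest belong to replicate 3 of 0 h (1583) and of 48 h (1966), both on slide 3. limma 3.58.1 in R 4.3.3 fitted 1 mean per time to all 24762 kept probes of any kind (6 residual and 2.59 prior degrees of freedom). P-values are two-sided and adjusted by Benjamini-Hochberg over all of them, and a call is an adjusted p under 0.05. Fold changes and changes are later time over 0 h, with the model's standard error. The fit was tested on simulated data. Depth in counts does not exist for arrays, so the number of arrays limits precision.

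Alternatives were median and quantile scaling, the 75th percentile of detected probes, normexp (offset 50, on median signal and median background, since the mean signal was not used here), the value table, filters, replicate and slide blocks, only the 6 arrays compared, single arrays and slides left out, and a common floor added after seeing the data. Same-numbered arrays deviated together for 48 h and 0 h (correlations of 0.27 to 0.44) and less for 72 h and 0 h (0.01 to 0.21). Every same-numbered pair of 48 h and 0 h shares a slide, and so do replicates 1 and 2 of 72 h and 0 h. Whether a number pairs plants across times is not stated by the labels.

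Named probes follow a rule. For each later time it takes, among calls in 1 direction in all 3 same-numbered pairs and above background on all 6 arrays, the 8 largest rises and falls, plus the 4 largest bounds each way. It adds the 4 smallest p between 72 h and 48 h, the 6 brightest, the 3 steadiest and the 5 longest runs. Strand partners and the chromosome 2 probes were chosen after their values were seen. Members, lists and rule were chosen with earlier results of these data known.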

Additional observations from a re-analysis of the deposited data

How the results depend on the processing

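The count of members called at 48 h was 498 of 2012 (24.8%). It moved by more than 1.5 times to 315 with normexp (15.7%) and to 231 without slides 3 and 4 (11.5%). It was also lower, at 325, with only probes above background on all 9 arrays. That setting tested 1405 members, so the share of 23.1% hardly moved. Without the filter 453 of 8812 were called (5.14%). At 72 h the main count was 585, and 327 without slides 3 and 4, a setting that leaves 2 arrays per time. Leaving out single arrays gave 351 to 508 at 48 h, 423 to 623 at 72 h and 0 to 1 between 72 h and 48 h, the 1 being without 48 h replicate 3. The counts of the other settings stayed within 1.5 times, including the replicate block (546 at 48 h, 648 at 72 h and 0 between them), the slide as a block (591, 486 and 0) and the common floor (457, 535 and 0). The replicate block changed no call of a named probe except 3 that became called. The slide as a block lost 5 named calls at 72 h, those of A_84_P707841, A_84_P712267, A_84_P720984, A_84_P725847 and A_84_P726306 (adjusted p of 0.0543 to 0.0738), and made 3 called at 48 h. With normexp 5 changes of named probes near background reversed, without a call: A_84_P704600 to -0.36 at 48 h and -0.21 at 72 h, A_84_P716947 to -0.11 at 48 h, and A_84_P728651 to -0.068 at 48 h and -0.62 at 72 h. The cause was not tested. Of 99 named calls, 82 held in every fit that left out 1 array, and 32 were lost without slides 3 and 4. Signal over background limits what can be read: 4713 position probes were above background on 0 arrays, and a change of a dim probe depends on the background correction.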
